A study of Homo sapiens with 12 samples.

Results

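The cell's zinc carriers and their metal-sensing transcription factor were followed across CXXC5 overexpression and knockdown in K562 cells, a leukemia line of human origin in long use. The set holds the zinc exporters SLC30A1, SLC30A5 and SLC30A9, the zinc importers SLC39A1, SLC39A4, SLC39A6, SLC39A7, SLC39A8 and SLC39A14, and the factor MTF1. Every probe set that the platform annotation pairs with 1 of these symbols and no other was taken, which gave 16 probe sets for 10 genes, of 22215 probe sets and 11963 genes in all. SLC39A8 had 4 probe sets, SLC30A5, SLC39A6 and MTF1 had 2 each, and every other gene had 1. Each probe set has 1 expression value per array, on a log2 scale, over 12 arrays in 4 groups of 3. The first group was nucleofected, a transient transfection, with human CXXC5 in the pEGFP-C2 vector, and its control received the empty pEGFP-C2 vector. In the next group CXXC5 shRNA was delivered by stable infection with pLKO lentivirus, and its control carried a scrambled shRNA in the same way. All groups had Wnt3a at 100 ng/ml in serum-free medium, and RNA was taken at 8 h, so none of the comparisons measures Wnt3a itself. The labels name a pair of shRNA clones without saying which array carried which, and they do not say that replicates were separate cultures, so every p-value speaks only of array-to-array spread, which may be technical. CXXC5 itself was not analysed here, and the groups go by their labels.

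Zinc is held in the cytosol at a low free level by carriers of 2 families. Most SLC30 proteins (ZnT) move zinc out of the cytosol, either across the plasma membrane or into organelles. SLC39 proteins (ZIP) move it in from outside or out of organelles. MTF1 is a zinc finger factor that binds metal response elements when cytosolic zinc is high and switches on metallothioneins, small zinc-binding proteins, and the exporter gene SLC30A1.

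The promoters of SLC30A1 and of the metallothioneins MT1X and MT2A are shown because these genes share MTF1 as a known regulator and moved together in some comparisons and apart in another. Each line gives 250 bases before the RefSeq start site (GRCh38.p14), 5′ to 3′ on the gene's own strand, and capitals mark the core of the metal response element, searched as TGCACNC and TGCGCNC on both strands.
SLC30A1, chr1:211579162-211579411, minus strand: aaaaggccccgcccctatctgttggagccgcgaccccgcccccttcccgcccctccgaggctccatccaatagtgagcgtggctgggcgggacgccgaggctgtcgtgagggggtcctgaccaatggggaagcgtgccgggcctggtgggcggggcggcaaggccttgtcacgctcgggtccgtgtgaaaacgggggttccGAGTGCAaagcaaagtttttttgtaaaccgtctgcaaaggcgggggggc
MT1X, chr16:56682220-56682469, plus strand: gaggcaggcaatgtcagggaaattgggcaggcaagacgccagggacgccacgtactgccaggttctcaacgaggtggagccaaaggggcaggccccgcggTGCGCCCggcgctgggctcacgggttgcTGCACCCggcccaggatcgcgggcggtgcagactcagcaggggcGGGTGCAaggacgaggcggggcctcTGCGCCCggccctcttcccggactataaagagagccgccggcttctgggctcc
MT2A, chr16:56608334-56608583, plus strand: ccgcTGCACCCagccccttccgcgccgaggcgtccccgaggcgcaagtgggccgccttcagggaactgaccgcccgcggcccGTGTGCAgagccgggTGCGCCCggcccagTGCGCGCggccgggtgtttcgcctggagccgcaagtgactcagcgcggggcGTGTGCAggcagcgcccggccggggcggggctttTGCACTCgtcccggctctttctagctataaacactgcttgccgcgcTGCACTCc
Over the full window of 300 bases, which adds 50 bases after the start, SLC30A1 held 2 matches, at -49 to -43 and at 25 to 31 counted from the start. MT1X held 4 and MT2A held 8, and no match overlapped another. The other metallothioneins with a window were MT1H, with 8 matches, and MT1B and MT4, with 3 each. MT4 stood at -0.14 log2 with overexpression and was not called. Among all 35116 RefSeq promoter windows, 29.6% held at least 1 match, 8.6% at least 2, 2.3% at least 3, 0.601% at least 4 and 0.074% at least 6. Of the 10 members, 8 had a window. SLC39A6 held 1 match, SLC39A1 held 1 in 1 of its 2 windows and SLC39A8 held 1 in 1 of its 3 windows. MTF1, SLC30A5, SLC30A9 and SLC39A7 held 0. A match is a description of these letters and not a measured binding site.

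The median log2 value of an array lay between 6.64 and 6.70, and replicates of a group correlated across probe sets at 0.996 to 0.998. Scrambled shRNA replicate 3 stood apart in the 3′ minus 5′ difference of the GAPDH control probe sets, at 0.87 log2 against 0.227 to 0.335 on the other 11 arrays, and calls of members that use it are also given without it. Marker genes were placed by their brightest probe set. Of 9 measured K562 markers, BCR and ABL1 among them, 7 lay above the 75th percentile of mean level and 0 below the 50th. Dimmer probe sets of HBE1, TAL1 and BCR lay below the 50th, at 37.2, 23.0 and 49.0. Of 5 lymphoid markers 4 lay below the 50th percentile and 1, CD3D, above the 75th. Of 7 fibroblast and epithelial markers 4 lay below the 50th and 2, EPCAM and KRT19, above the 75th.

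SLC30A1, which encodes the plasma membrane zinc exporter ZnT1, moved furthest of all members. It was 8.20, 8.18 and 7.97 in the overexpression arrays, against 9.68, 9.87 and 9.70 in the empty vector arrays. In the lentiviral groups it was 9.63, 9.57 and 9.57 with knockdown, against 8.55, 8.29 and 8.39 with scrambled shRNA. The groups did not overlap in either comparison, and the low values lay in overexpression and scrambled shRNA arrays while the high ones lay in empty vector and knockdown arrays. SLC30A1 thus fell with overexpression, by 1.63 log2 (SE 0.0871, 95% interval -1.82 to -1.44, 3.09-fold, limma adjusted p = 1.2e-06). It rose with knockdown, by 1.18 log2 (SE 0.0871, 95% interval 0.99 to 1.37, 2.26-fold, limma adjusted p = 1.19e-05). In size these changes ranked 15 and 35 among 22215 probe sets. The difference of the overexpression and knockdown effects was -2.80 log2 (SE 0.123, limma adjusted p = 1.44e-07). Without scrambled shRNA replicate 3 the knockdown change was 1.16 log2 and the difference of effects -2.79 log2.

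The control groups also differed in SLC30A1. Scrambled shRNA arrays stood lower than empty vector arrays, with a log2 difference of -1.33 (SE 0.0871, 2.52-fold, limma adjusted p = 1.86e-06), or -1.32 without replicate 3, and the groups did not overlap. Knockdown arrays lay close to empty vector arrays, with a log2 difference of -0.16 and a 95% interval of -0.35 to 0.03 (limma adjusted p = 0.325), although the 3 values of each group did not overlap. The control groups differ in delivery route, vector and insert, and these cannot be told apart here. The comparisons against empty vector share those 3 arrays, and those with scrambled shRNA share the other 3.

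**Figure D1:**
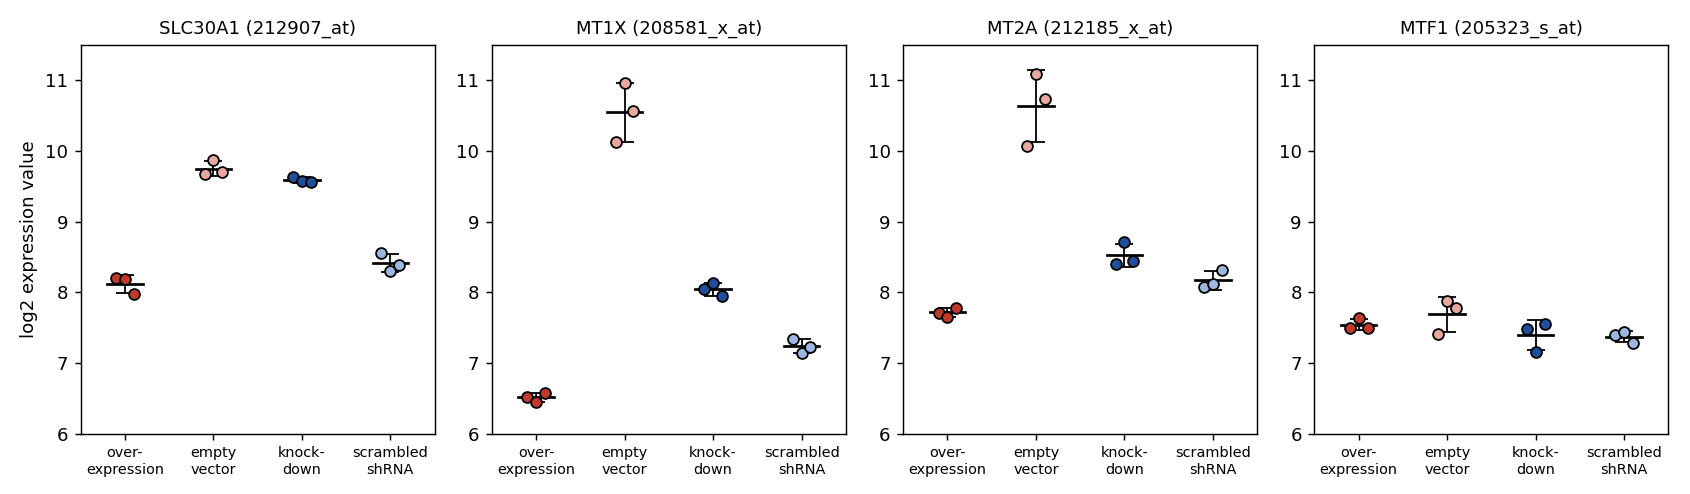
Log2 expression value (y axis) of SLC30A1, MT1X, MT2A and MTF1 in each group (x axis); points are arrays, bars the mean and whiskers the SD of 3 arrays. SLC30A1 is high in empty vector and knockdown arrays, the metallothioneins are highest in the empty vector arrays, and MTF1 (its brighter probe set) overlaps between overexpression and empty vector and between knockdown and scrambled shRNA.

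MT1X and MT2A, metallothioneins that share MTF1 as a known regulator with SLC30A1, followed SLC30A1 in all but the knockdown arrays. Whether MTF1 lay behind this was not tested. MT1X (brightest probe set) was 6.53, 6.45 and 6.57 with overexpression, against 10.12, 10.95 and 10.57 with empty vector. It was 8.05, 8.13 and 7.94 with knockdown, against 7.34, 7.14 and 7.23 with scrambled shRNA. MT2A was 7.71, 7.65 and 7.78 with overexpression, against 10.07, 11.08 and 10.73 with empty vector, and 8.40, 8.71 and 8.45 with knockdown, against 8.07, 8.11 and 8.32 with scrambled shRNA. The empty vector arrays thus stood alone above all 9 other arrays for both genes.

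Of 14 metallothionein probe sets for 10 genes, 10 fell with overexpression and 0 rose, with log2 changes of -4.24 to -2.25 among those that fell. That made 71.4% of the list, against 4.19% of all probe sets. The same 10 were also lower in knockdown than in empty vector arrays, where 3.24% of all were called. Their log2 differences there were -2.50 to -1.60, with 95% intervals whose upper ends were -1.28 or lower and limma adjusted p of at most 0.00248. SLC30A1 had a 95% interval of -0.35 to 0.03 in that comparison. The 10 were picked by their fall from the same empty vector arrays, so being lower again is no separate result. Against scrambled shRNA, both MT1X probe sets rose with knockdown, by 1.45 and 0.80 log2 (1.26 and 0.80 without scrambled shRNA replicate 3). Those 2 made 14.3% of the list, against 9.83% of all. The other 8 of the 10 that fell with overexpression stood at 0.17 to 0.67 and were not called. All 10 can match several transcripts of the family, so single metallothionein genes are uncertain. The remaining 4 probe sets, for MT3, MT4, MT1M and a dim MT1G one, stood between -0.29 and 0.03 with overexpression and were not called.

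The 5 probe sets whose values over the 12 arrays were most like SLC30A1 included no zinc carrier and no metallothionein. Likeness was the root mean square difference of mean-centred log2 values, and the nearest were TMEM100 (0.205), ID3 (0.238), RASGRP1 (0.253), ZNF22 (0.256) and NEK3 (0.284). This measure weighs the size of a change as well as its pattern, so a carrier with small changes could not rank near. Group means spanned 1.63 log2 for SLC30A1 and 0.51 log2 for SLC30A5 (218989_x_at), so the absence does not show that carriers lack the pattern. TMEM100 is a membrane protein, ID3 an inhibitor of DNA binding, RASGRP1 a Ras activator, ZNF22 a zinc finger protein and NEK3 a kinase. TMEM100, the nearest, averaged 7.69 ± 0.14 with overexpression and 8.94 ± 0.09 with empty vector, and 8.83 ± 0.16 with knockdown and 8.00 ± 0.23 with scrambled shRNA (SD, n = 3 each). All 5 had knockdown and empty vector means within 0.15 log2 of each other. They were picked for likeness to SLC30A1 over these same arrays, so this closeness follows from the choice and is no separate result.

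**Figure D2:**
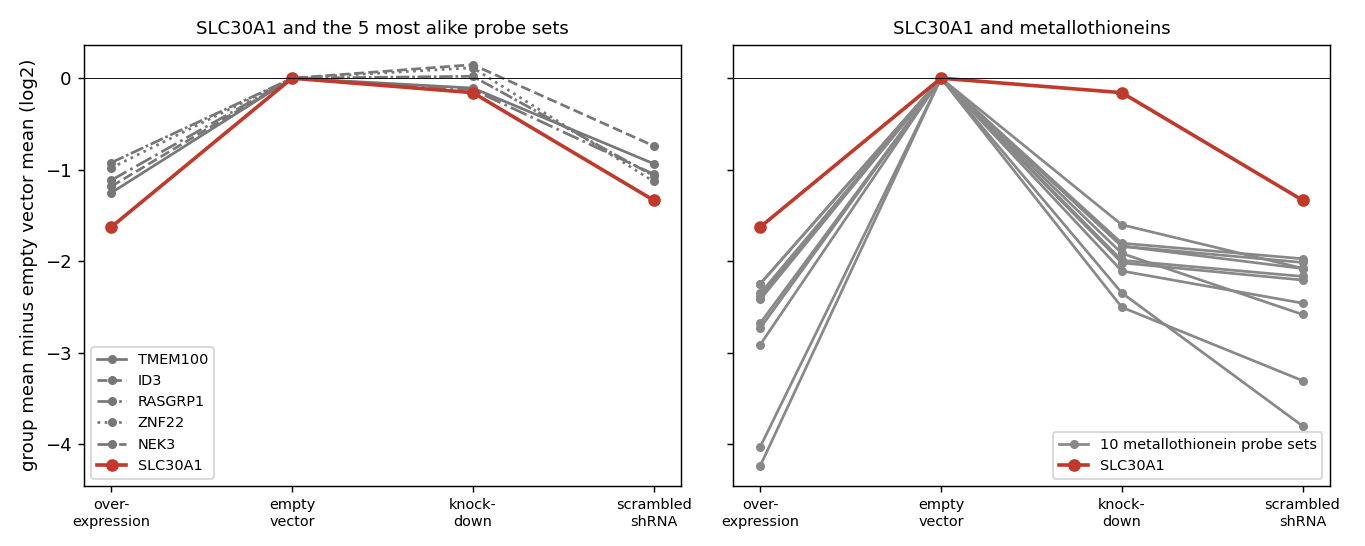
Group mean minus the empty vector mean, in log2 (y axis), for the 4 groups (x axis; lines join groups only to guide the eye): SLC30A1 with its 5 most alike probe sets on the left, and with the 10 metallothionein probe sets that fell with overexpression on the right. SLC30A1 stands at -0.16 in knockdown arrays, and the metallothioneins at -2.50 to -1.60.

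The exporter SLC30A5 (ZnT5), which loads zinc into the secretory pathway, changed at 1 of its 2 probe sets. Probe set 218989_x_at was 9.13, 9.02 and 8.87 with overexpression, against 9.41, 9.30 and 9.15 with empty vector. It was 9.47, 9.39 and 9.45 with knockdown, against 8.86, 8.87 and 9.04 with scrambled shRNA. Its knockdown arrays lay above all 3 scrambled shRNA arrays, by 0.51 log2 (SE 0.0858, 1.43-fold, limma adjusted p = 0.00318), so it rose there. Without scrambled shRNA replicate 3 the rise was 0.57 log2. With overexpression its log2 change was -0.28, with groups that did not overlap and limma adjusted p = 0.0972. In scrambled shRNA minus empty vector it stood at -0.36 log2 (limma adjusted p = 0.00928), or -0.42 without that array. The difference of both effects was called, at -0.79 log2 (SE 0.121, limma adjusted p = 0.00106), or -0.85 without it.

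Probe set 220181_x_at of SLC30A5 did not follow. It ranged from 9.12 to 9.19 with overexpression and from 9.16 to 9.25 with empty vector, and from 8.90 to 9.19 with knockdown and from 8.85 to 9.13 with scrambled shRNA. Its log2 changes were -0.05 and 0.05, with 95% intervals of -0.24 to 0.14 and -0.14 to 0.24. The annotation ties the pair to different RefSeq accessions, and both are of the kind that can match several transcripts. Over the mean of both probe sets, the knockdown change of SLC30A5 was 0.28 log2 (SE 0.0645, limma adjusted p = 0.0129). The probe sets most like 218989_x_at were those of CCDC92 (0.0615), GLT8D1 (0.0619), NQO1 (0.0654), NCOA1 (0.0672) and B4GAT1 (0.0713).

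SLC30A9 (ZnT9), a carrier of mitochondria, had no call. It was 9.55, 9.49 and 9.34 with overexpression, against 9.71, 9.53 and 9.51 with empty vector, and 9.75, 9.57 and 9.67 with knockdown, against 9.57, 9.48 and 9.47 with scrambled shRNA. The log2 changes were -0.12 and 0.16, with limma adjusted p of 0.49 and 0.251. The knockdown and scrambled shRNA arrays just failed to overlap, at 9.57474 and 9.57148 for the nearest pair.

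Among the importers, SLC39A14 (ZIP14), a plasma membrane carrier of zinc, iron and manganese, rose with knockdown. It was 10.56, 10.47 and 10.51 with knockdown, against 10.23, 10.09 and 10.20 with scrambled shRNA. The groups did not overlap, and the rise was 0.34 log2 (SE 0.0645, 1.27-fold, limma adjusted p = 0.00636), or 0.35 without scrambled shRNA replicate 3. With overexpression it was 10.33, 10.41 and 10.27, against 10.47, 10.52 and 10.41 with empty vector. That change was -0.13 log2 (limma adjusted p = 0.344), and the effects differed by -0.47 log2 (SE 0.0912, limma adjusted p = 0.00467), or -0.48 without replicate 3. In scrambled shRNA minus empty vector, SLC39A14 stood at -0.29 log2 (limma adjusted p = 0.00643), or -0.30 without replicate 3, while knockdown minus empty vector was 0.05 log2.

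**Figure D3:**
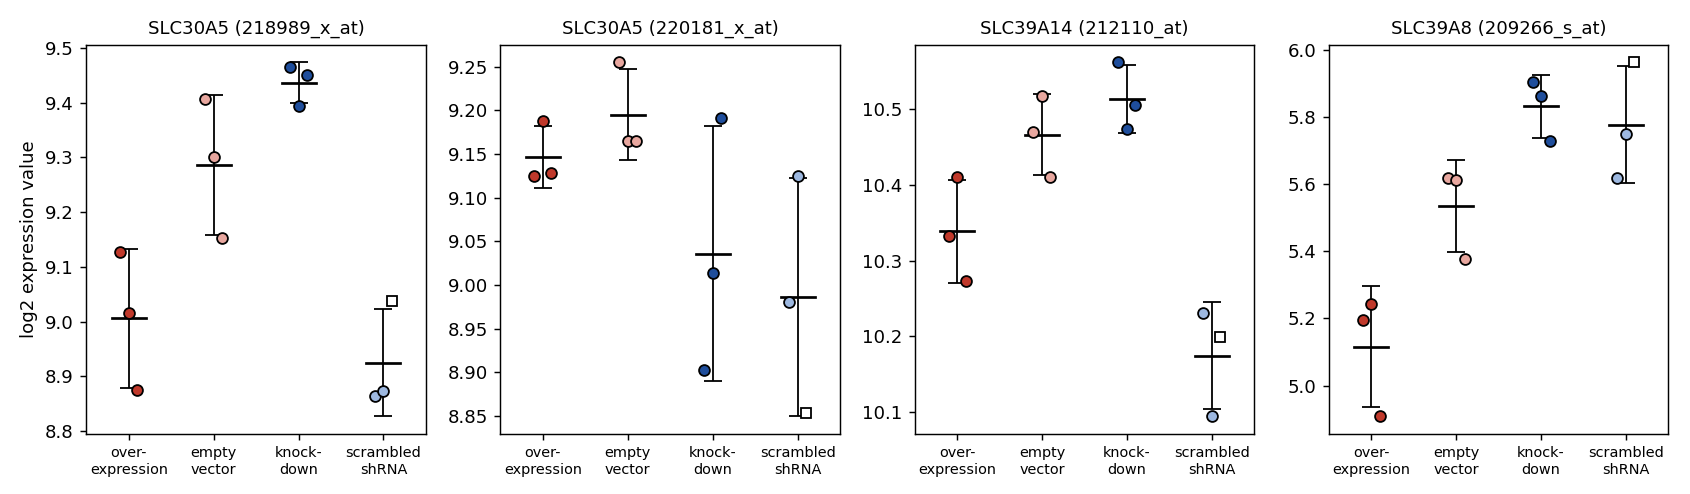
Log2 expression value (y axis, a separate range per panel) of both SLC30A5 probe sets, SLC39A14 and SLC39A8 209266_s_at in each group (x axis); points are arrays, the white square is scrambled shRNA replicate 3, bars are means and whiskers SD of 3 arrays. The first SLC30A5 probe set and SLC39A14 are highest with knockdown and lowest with scrambled shRNA, and the second SLC30A5 probe set overlaps between knockdown and scrambled shRNA.

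SLC39A4 (ZIP4), the importer of dietary zinc in the gut, fell with knockdown in a call that rested on few arrays. It was 9.85, 9.84 and 9.88 with knockdown, against 10.05, 10.04 and 10.40 with scrambled shRNA, where the last value is replicate 3. The change was -0.31 log2 (SE 0.0867, limma adjusted p = 0.0454). Without scrambled shRNA replicate 3 it was -0.19 log2 with limma adjusted p = 0.0581, and leaving out any single knockdown array also ended the call. In overexpression arrays it was 9.93, 9.98 and 9.94, against 9.91, 9.89 and 9.84 with empty vector, a change of 0.07 log2 (limma adjusted p = 0.76). Scrambled shRNA minus empty vector was 0.29 log2 (limma adjusted p = 0.0288), or 0.17 without replicate 3, and leaving out any single empty vector array ended that call.

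SLC39A1 (ZIP1), a widely expressed plasma membrane importer, had its highest value on the same array. It was 7.90, 7.83 and 7.85 with knockdown, against 7.97, 7.98 and 8.36 with scrambled shRNA, a change of -0.24 log2 (limma adjusted p = 0.168). Without replicate 3 the change was -0.11 log2. It was 7.94, 8.08 and 7.95 with overexpression, against 7.93, 7.93 and 7.72 with empty vector, a change of 0.13 log2 (limma adjusted p = 0.595).

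SLC39A6 (ZIP6), a plasma membrane importer first known as the estrogen-regulated gene LIV-1, lay lower in both lentiviral groups than in both nucleofected groups. Delivery route, vector and insert differ together between these groups and cannot be told apart here. Probe set 202088_at was 10.33, 10.24 and 10.25 with knockdown and 10.43, 10.25 and 10.32 with scrambled shRNA. It was 10.64, 10.76 and 10.63 with overexpression and 10.59, 10.65 and 10.57 with empty vector. All 6 lentiviral arrays lay below all 6 nucleofected arrays. Against empty vector, the log2 difference was -0.27 with scrambled shRNA (SE 0.0665, limma adjusted p = 0.0113; -0.26 without replicate 3) and -0.33 with knockdown (SE 0.0665, limma adjusted p = 0.0278). The knockdown call ended without empty vector replicate 2 or 3 or knockdown replicate 2 or 3. Overexpression minus empty vector was 0.07 log2 and knockdown minus scrambled shRNA was -0.06 log2, neither called.

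Probe set 202089_s_at of SLC39A6 held the widest spread within a group, an SD of 0.76 log2 over the 3 scrambled shRNA arrays. It was 8.11 and 8.00 in scrambled shRNA replicates 1 and 2 and 6.75 in replicate 3, against 8.56, 8.53 and 8.45 with empty vector. The difference from empty vector was -0.90 log2 (SE 0.26, limma adjusted p = 0.0235), and -0.46 log2 without replicate 3 (SE 0.0696, limma adjusted p = 0.00157). The call ended without empty vector replicate 1 or 2. Knockdown minus scrambled shRNA was 0.37 log2 with replicate 3 and -0.06 log2 without it, and was not called either way. Whether the weak 5′ signal of that array accounts for its low SLC39A6 value was not tested.

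**Figure D4:**
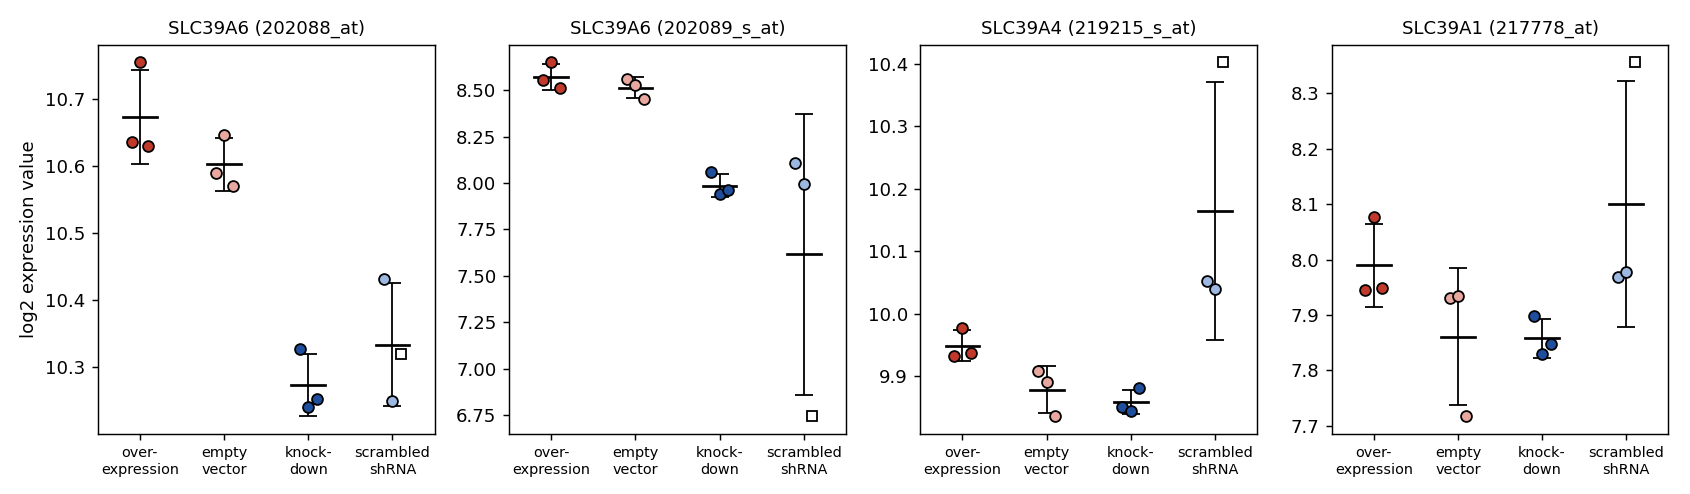
Log2 expression value (y axis, a separate range per panel) of SLC39A6 (both probe sets), SLC39A4 and SLC39A1 in each group (x axis); points are arrays, the white square is scrambled shRNA replicate 3, bars are means and whiskers SD of 3 arrays. Replicate 3 is the lowest array for SLC39A6 202089_s_at, at 6.75, and the highest for SLC39A4 and SLC39A1, at 10.40 and 8.36.

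SLC39A8 (ZIP8), an importer of zinc and manganese and a known NF-kappaB target in other cells, gave different answers at its 4 probe sets. The brightest, 209267_s_at, was 10.39, 10.55 and 10.32 with overexpression, against 10.60, 10.39 and 10.40 with empty vector, and 10.38, 10.37 and 10.36 with knockdown, against 10.40, 10.32 and 10.28 with scrambled shRNA. Its groups overlapped, with log2 changes of -0.04 and 0.04 and 95% intervals of -0.21 to 0.13 and -0.13 to 0.21. Probe set 219869_s_at stood at 0.00 and 0.06 log2, not called.

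The dimmest SLC39A8 probe sets varied more. Probe set 209266_s_at, at the 34.5th percentile of mean level, was 5.20, 5.24 and 4.91 with overexpression, against 5.62, 5.61 and 5.38 with empty vector. The groups did not overlap, and the change of -0.42 log2 (SE 0.112) missed the threshold at limma adjusted p = 0.0587. Probe set 216504_s_at, at the 23.9th percentile, had a scrambled shRNA minus empty vector difference of -0.60 log2 (SE 0.128, limma adjusted p = 0.00533), or -0.45 without replicate 3. SLC39A8 changes with knockdown were 0.04 to 0.23 log2 over the 4 probe sets, none called. The highest, of 216504_s_at, was 0.07 log2 without scrambled shRNA replicate 3.

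SLC39A7 (ZIP7), which releases zinc from the endoplasmic reticulum and Golgi, had the narrowest range of group means among the genes with a single probe set. It was 9.31, 9.20 and 9.13 with overexpression, against 9.22, 9.16 and 9.18 with empty vector, and 9.05, 9.22 and 9.04 with knockdown, against 9.11, 8.98 and 9.07 with scrambled shRNA. Its log2 changes were 0.03 and 0.05, with 95% intervals of -0.13 to 0.18 and -0.11 to 0.20, so a change of 1.5-fold lay outside both.

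MTF1 itself had no call at either probe set. Probe set 205323_s_at was 7.50, 7.63 and 7.50 with overexpression, against 7.40, 7.87 and 7.78 with empty vector, and 7.49, 7.15 and 7.55 with knockdown, against 7.40, 7.44 and 7.28 with scrambled shRNA. The groups overlapped, with log2 changes of -0.14 (95% interval -0.42 to 0.13, limma adjusted p = 0.64) and 0.03 (95% interval -0.25 to 0.30, limma adjusted p = 0.927). Probe set 205322_s_at stood at -0.10 and -0.06 log2. At unadjusted p under 0.05, 0 of these 2 probe sets differed in either comparison. Scrambled shRNA minus empty vector was -0.31 and -0.13 log2 at the 2 probe sets, with limma adjusted p of 0.0835 and 0.316. Knockdown minus empty vector was -0.29 log2 (95% interval -0.56 to -0.01, limma adjusted p = 0.217) and -0.20 log2 (limma adjusted p = 0.255). Against empty vector, 205323_s_at had an unadjusted p of 0.0284 with scrambled shRNA and 0.0411 with knockdown. MTF1 is activated by zinc and by its movement into the nucleus, which mRNA arrays do not measure.

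Counted together, a somewhat larger share of the 16 member probe sets was called than of all probe sets. But 16 probe sets are too few to set the members apart by such counts. With overexpression 1 of 16 was called, and limma called 4.19% of all probe sets. It fell, as did 1.92% of all, and 0 of 16 rose, against 2.27% of all. With knockdown 4 of 16 were called, against 9.83% of all. Of these 3 rose and 1 fell, against 6.13% and 3.7% of all. Unadjusted p was under 0.05 for 3 of the 16 with overexpression and for 5 with knockdown, against 17.2% and 24.5% of all. Groups did not overlap for 6 member probe sets with overexpression and 7 with knockdown, against 24.7% and 29.2% of all. The difference of the effects was called for 3 of the 16, against 14.9% of all. All 3 were negative, a direction called in 9.1% of all, and 0 were positive, against 5.82%.

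Between the controls more members differed, as did more of the array. Scrambled shRNA minus empty vector was called for 7 of 16, against 27.7% of all, with 6 lower and 1 higher against 14.3% and 13.4%. Groups did not overlap for 11 of the 16, against 43.5%. Knockdown minus empty vector was called for 1, against 3.24%. It was lower, as were 1.17% of all, and 0 of 16 were higher, against 2.07%, with 4 of 16 at unadjusted p under 0.05, against 20.9% of all. Groups did not overlap there for 6 of the 16, against 28.4%. A limma F test over all 4 groups called 7 of 16, against 27.5% of all. The median absolute log2 change over the members was 0.108 with overexpression and 0.112 with knockdown, beside 0.0945 and 0.117 over all probe sets.

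**Figure D5:**
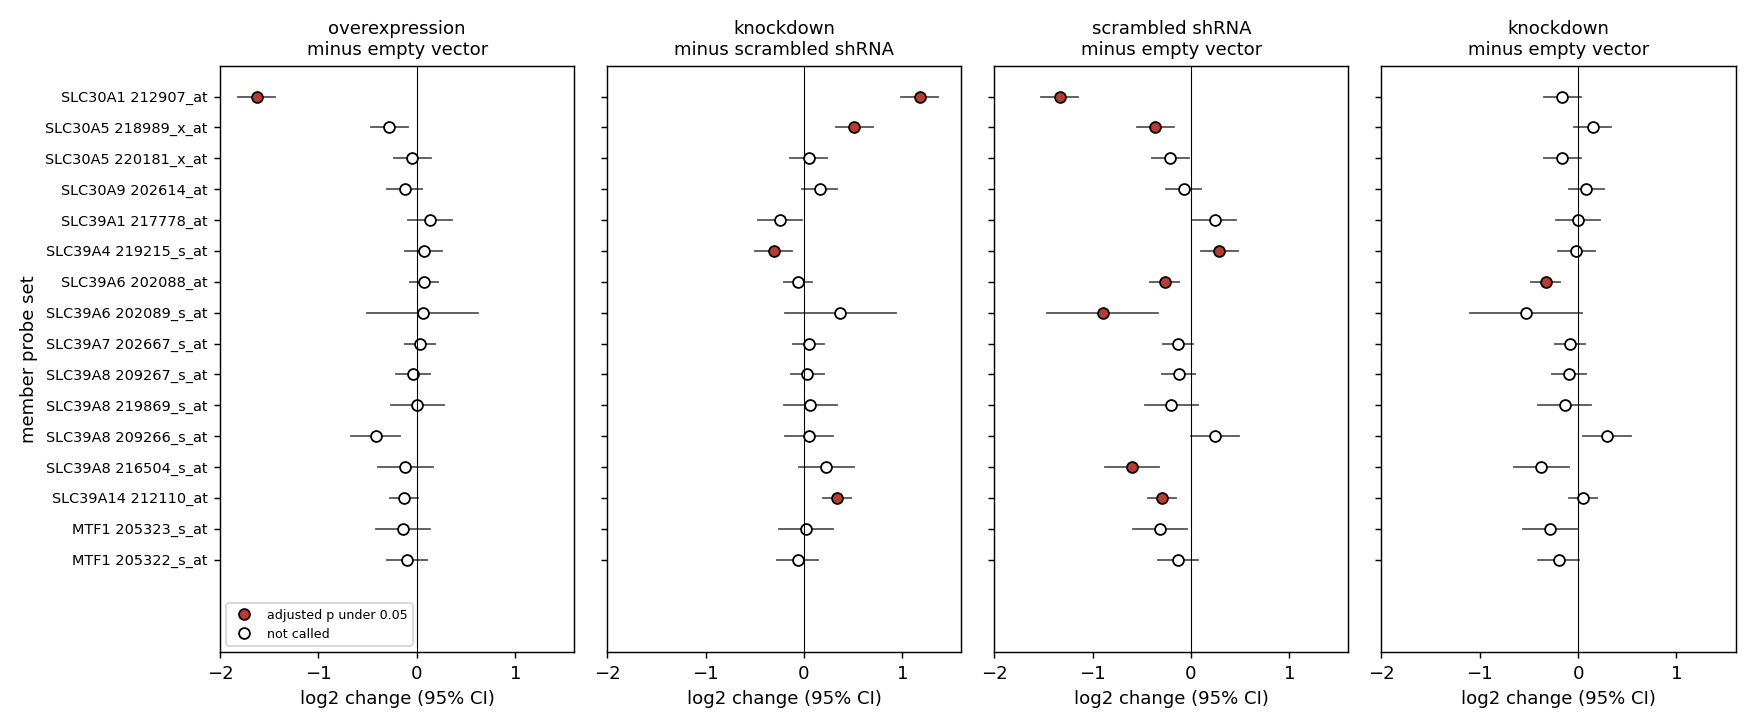
Log2 change with its 95% interval (x axis) for the 16 member probe sets (y axis) in 4 comparisons; red points have limma adjusted p under 0.05 and white points do not. SLC30A1 stands at -1.63, 1.18, -1.33 and -0.16 across the panels.

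Other zinc carriers were few on the array. Of 15 further SLC30 and SLC39 genes 6 were measured, with 8 probe sets, and limma called 0 with overexpression and 0 with knockdown, with 1 at unadjusted p under 0.05 in each. With 4.19% and 9.83% of all probe sets called, 8 probe sets are too few to set this list apart. SLC39A9 (217859_s_at), a dim probe set, stood at 0.35 log2 with overexpression (limma adjusted p = 0.244), and SLC39A2 stood at -0.28 log2 with knockdown (limma adjusted p = 0.144). SLC30A3 and SLC39A2 were higher with scrambled shRNA than with empty vector, by 0.45 and 0.36 log2, which made 25.0% of the list beside 27.7% of all. Without scrambled shRNA replicate 3 the SLC39A2 call was lost (0.38 log2, limma adjusted p = 0.0618).

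Genes listed as metal-responsive or linked to MTF1 changed in part. The 8 measured were GCLC, GCLM, SLC7A11, TXNRD1, SELENOW, HMOX1, NQO1 and PLAUR, mostly of glutathione and redox metabolism, with PLAUR the urokinase receptor. Of their 15 probe sets 2 fell and 0 rose with overexpression, and 4 rose and 0 fell with knockdown. That made 13.3% and 26.7% of the list, against 4.19% and 9.83% of all probe sets. All of these calls were of GCLM and NQO1, and the other genes of the list had none there. GCLM, a subunit of the enzyme that starts glutathione synthesis, fell by 0.73 log2 with overexpression (limma adjusted p = 0.000981) and rose by 0.37 log2 with knockdown (limma adjusted p = 0.0257). Without scrambled shRNA replicate 3 the knockdown change of GCLM was 0.32 log2 and not called (limma adjusted p = 0.0806). The quinone reductase NQO1 rose at all 3 of its probe sets with knockdown, by 0.46 to 0.60 log2, and fell at 1 of them with overexpression, by 0.25 log2. All 3 were also lower with scrambled shRNA than with empty vector, at -0.40 to -0.36 log2. Knockdown minus empty vector was 0.10 to 0.22 log2, not called. SLC7A11 exceeded empty vector at 2 of its 3 probe sets in both lentiviral groups. The differences were 0.85 and 0.57 log2 with scrambled shRNA and 0.68 and 0.47 log2 with knockdown. Its other probe set, 207528_s_at, stood at 0.13 and 0.20 log2 and was not called. In these 2 comparisons 33.3% and 13.3% of the list were called, against 27.7% and 3.24% of all probe sets.

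Iron and copper genes went both ways. Of 19 probe sets for 11 genes of this list 2 rose and 1 fell with overexpression, and 1 rose and 3 fell with knockdown. That made 15.8% and 21.1% of the list, against 4.19% and 9.83% of all probe sets. The transferrin receptor TFRC rose at both probe sets with overexpression, by 0.84 and 0.43 log2, and fell at both with knockdown, by 0.70 and 0.43 log2. Its overexpression and scrambled shRNA means were 13.27 and 13.24 at the first probe set, and its empty vector and knockdown means were 12.43 and 12.54. The copper importer SLC31A1 fell by 0.33 log2 with overexpression, the copper chaperone CCS rose by 0.28 with knockdown, and SLC31A2 fell by 0.40 with knockdown. The CCS call was lost without scrambled shRNA replicate 3 (0.24 log2, limma adjusted p = 0.121).

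Some markers of cell type also differed between groups. Of 13 probe sets for 9 K562 markers 1 rose and 1 fell with overexpression, and 3 rose and 3 fell with knockdown. That made 15.4% and 46.2% of the list, against 4.19% and 9.83% of all probe sets. HBE1 rose at 1 of its 2 probe sets, by 0.27 log2, with overexpression and HBZ fell by 0.35. With knockdown GATA1 rose by 0.47 log2 and BCR at 2 probe sets, by 0.36 and 0.43. HBE1 fell at the same probe set, by 0.56, HBZ by 0.44 and ALAS2 by 0.49. Of 6 lymphoid probe sets 1 rose with overexpression and 1 fell with knockdown, both of CD3D. Each was 16.7% of that list, and 6 probe sets are too few to set it apart from all. Of 18 fibroblast and epithelial ones 0 were called with overexpression (2 at unadjusted p under 0.05) and 1, of COL1A1, rose with knockdown. That was 5.56% of the list, below the 9.83% of all. Without scrambled shRNA replicate 3 the knockdown calls of BCR, CD3D and COL1A1 were lost. Whether these shifts bear on the zinc carriers was not tested.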

How the data were processed

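Biotin-labelled cRNA was hybridised to Affymetrix arrays, 1 per sample. The deposited log2 values were made with Affymetrix Expression Console, per the submitters' processing notes; neither its version nor its summary method is known here, and the log2 scale was inferred from the range, 2.07 to 14.4. Array medians were already close, so no further normalization was applied. No scanner files, detection calls or batches were used, and precision is set by having 3 arrays a group.

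Of 22277 probe sets, 62 controls were left out. The platform annotation gave 19064 of the rest 1 symbol, 1043 several and 2108 none; 19052 matched RefSeq (GRCh38.p14) by gene identifier and 0 symbols changed. The fit to each probe set used limma 3.58.1 under R 4.3.3 (lmFit, 1 coefficient per group, 8 residual degrees of freedom, eBayes), with two-sided tests and Benjamini-Hochberg adjustment over 22215 probe sets; adjusted p under 0.05 was called rose or fell. The fit was tested on simulated data. Overexpression and scrambled shRNA were each set against empty vector, knockdown against both controls, and the overexpression effect against the knockdown effect. Lists, named genes (all members, called list genes by size, all metallothioneins and the 5 most alike probe sets for members with group means at least 0.5 log2 apart) and members were chosen with earlier results of these data known. A planned description of member proteins was not made. Figures were drawn with matplotlib 3.10.9.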

Additional observations from a re-analysis of the deposited data

Results flagged for a closer look

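For 3 of 16 member probe sets the effect of CXXC5 overexpression differed from that of knockdown by limma's test of the difference itself. That test called 14.9% of all probe sets, and 9.1% in the negative direction, so the count alone does not set the members apart. SLC30A1 differed by -2.80 log2 (limma adjusted p = 1.44e-07), with -1.63 for overexpression and 1.18 for knockdown, and the groups did not overlap in either comparison. SLC30A5 (218989_x_at) differed by -0.79 log2 (limma adjusted p = 0.00106), with -0.28 and 0.51, while its other probe set differed by -0.10 log2 and was not called. SLC39A14 differed by -0.47 log2 (limma adjusted p = 0.00467), with -0.13 and 0.34. In all 3, scrambled shRNA arrays also lay below empty vector arrays, at log2 differences of -1.33, -0.36 and -0.29. Knockdown and empty vector arrays differed by -0.16, 0.15 and 0.05 log2, none of them called.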

How the results depend on the processing

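Over 1320 recomputed single changes, 0 reversed a called direction, 31 calls were lost and 22 gained; 41 changes not called in either setting took the other sign. SLC30A1 kept its call under all 16 settings run with overexpression, at -1.67 to -1.55 log2, and under all 16 with knockdown, at 1.11 to 1.25. With overexpression the called members were 1, but 2 under median centring, 2 without the 40% of probe sets with the lowest mean, 2 with a trended robust prior and 3 with array weights; the additions were SLC30A5 (218989_x_at) and SLC39A8 (209266_s_at). With knockdown 4 became 1 when at least 1.5-fold was required, leaving SLC30A1. In scrambled shRNA minus empty vector, 7 probe sets became 4 at adjusted p under 0.01 and 3, for 3 genes, at 1.5-fold. In knockdown minus empty vector, 1 became 0 with the mean of probe sets per gene, at adjusted p under 0.01 and at 1.5-fold, and 2 with array weights. The difference of effects gave 5 with array weights against 3. Leaving out each array gave 1 to 1 probe sets and genes with overexpression, 3 to 4 with knockdown, 5 to 8 probe sets and 5 to 6 genes in scrambled shRNA minus empty vector, 0 to 1 in knockdown minus empty vector and 3 to 5 for the difference of effects, where 5 came without scrambled shRNA replicate 3, which added SLC39A4 and SLC39A8 (209266_s_at). The causes were not tested. Same-numbered replicates correlated at -0.0081 to 0.304 in overexpression and empty vector deviations and at -0.056 to 0.3 in knockdown and scrambled shRNA ones. Different-numbered replicates correlated at -0.318 to 0.0795 and at -0.223 to 0.207. The labels do not say what a shared number marks, so the numbers were not taken as pairs. With a replicate block the counts were 1, 4, 7, 1 and 3 probe sets, as without it. Over the whole array, calls with overexpression were 931, and 186 at 1.5-fold to 1852 with array weights; with knockdown they were 2184, and 325 to 2963; in scrambled shRNA minus empty vector 6157, and 1050 to 7051; in knockdown minus empty vector 720, and 96 to 2340; for the difference 3316, and 1462 to 4404.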
